A study of Mus musculus with 6 samples.

Results

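The miR-181 family was represented by 7 distinct sequences among the 2704 distinct sequences of the deposited table. Members were taken by name: after the species prefix and the isomiR suffix were removed, names of miR-181a, miR-181b, miR-181c or miR-181d, with or without a gene number and an arm, were kept. The 7 members were miR-181a-5p, miR-181b-5p, miR-181d-5p, miR-181a-1-3p, miR-181a-2-3p, miR-181b-1-3p and miR-181c-3p, and 5 of them reached the minimum summed value of 20 that was required for testing. RAW264.7 cells, an established mouse macrophage line, were cultured in exosome-free medium on smooth titanium disks (3 libraries) or on titanium disks with small-scale topography (ST), which the sample labels call micro-/nano- (3 libraries). Exosomes were isolated from the culture supernatant, and their small RNA was sequenced. The culture methods of the paper name fetal bovine serum in the medium and do not speak of a removal of exosomes from it. No other agent is named for the cells, and the disks were the only difference named between the groups. The methods speak of independent repeats of the experiment in general but do not say whether the sequenced libraries of a group are separate cultures. The p-values therefore reflect only library-to-library spread, possibly technical.

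A microRNA hairpin is cut into a duplex, of which one arm, the guide, is usually retained in an Argonaute protein while the other, the passenger, is mostly degraded. Targets are recognized mainly through the seed, bases 2 to 8 of the guide, and the 5p arms of all miR-181 members share one seed. The family is known from blood cells, where miR-181a promotes the B lineage and tunes the sensitivity of T cell receptor signaling, and miR-181b dampens NF-κB signaling in endothelium through importin-α3. In the mouse the genes lie in 3 pairs, so that the same 5p sequence can come from several loci, whereas the 3p arms tell the loci apart.

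The deposited sequences of the 5p arms are shown because they carry nearly all of the family's signal and share the seed, which is in capitals.
miR-181a-5p: aACATTCAacgctgtcggtga
miR-181b-5p: aACATTCAttgctgtcggtgg
miR-181d-5p: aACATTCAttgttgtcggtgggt
These were the only 3 sequences of the table with the seed ACATTCA. Counted from 1 at the 5′ end, miR-181b-5p differed from miR-181a-5p by A9T, C10T and A21G over 21 bases, and miR-181d-5p differed from miR-181b-5p by C12T over the same length. The listed miR-181a-5p was 21 nt long, 2 nt shorter at the 3′ end than the 23 nt RefSeq mature sequence, and the listed miR-181b-5p was 3 nt shorter than its 24 nt mature sequence, while miR-181d-5p had the full 23 nt. Each arm was listed with 1 sequence only, so that isomiRs of the same arm could not be compared.

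The 3p arms are shown because they separate the genes, with their seeds in capitals.
miR-181a-1-3p: aCCATCGAccgttgattgtac
miR-181a-2-3p: aCCACCGAccgttgactgtac
miR-181b-1-3p: cTCACTGAacaatgaatgcaa
miR-181c-3p: aCCATCGAccgttgagtggacc
miR-181a-1-3p and miR-181c-3p share a seed, whereas miR-181a-2-3p differs from miR-181a-1-3p by T5C within the seed and by T16C. The listed miR-181a-1-3p and miR-181a-2-3p were each 1 nt shorter than the mature sequence of 22 nt, and the other listed 3p arms had the full length. The table names the miR-181a-2-3p sequence rno-miR-181a-2-3p_R+2_1ss7AG, after a rat entry with a substitution, but it was identical over its 21 bases to the mouse mature sequence.

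Over their own length, all 7 sequences were identical to mouse RefSeq mature sequences (GRCm38.p6), and both guides fell into 2 hairpins. On chromosome 1, plus strand, Mir181a-1 (137966455 to 137966541) and Mir181b-1 (137966639 to 137966718) lie 97 bases apart. In GENCODE M21 both hairpins lie in an intron of the non-coding transcript Gm4258. Mir181b-1 lies within an exon of the lincRNA A430106G13Rik, and Mir181a-1 overlaps an exon of this lincRNA in part. On chromosome 2, plus strand, Mir181a-2 (38852735 to 38852810) and Mir181b-2 (38853830 to 38853918) lie opposite an intron of Nr6a1, a nuclear receptor gene on the minus strand. The miR-181d-5p and miR-181c-3p sequences lie on the minus strand of chromosome 8, from 84178759 to 84178781 and from 84178885 to 84178906, in an intron of Nanos3. The hairpins of Mir181a-1 and Mir181a-2 are given to show both listed arms, in capitals, on each precursor.
Mir181a-1: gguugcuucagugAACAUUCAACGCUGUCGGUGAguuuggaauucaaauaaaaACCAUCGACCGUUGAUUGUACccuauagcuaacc
Mir181a-2: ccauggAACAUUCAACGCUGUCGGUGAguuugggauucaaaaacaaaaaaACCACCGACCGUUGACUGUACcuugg
The 5p arm in capitals is the same on both, and the 3p arm in capitals is not. Of the RefSeq mature arms of the family, miR-181c-5p, miR-181b-2-3p and miR-181d-3p were not listed in any library.

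miR-181a-5p was the leading member and had nearly the same level on both disks. Its normalized value was 601, 601 and 645 in the ST libraries (replicates 1, 2 and 3, always in this order) and 712, 649 and 599.5 in the smooth ones. The groups overlapped, with the highest value on a smooth disk and the lowest also on a smooth disk. The means were 616 ± 25.2 and 653 ± 56.3 (SD, n = 3 libraries each), a ratio of 0.942. The log2 fold change of ST over smooth, on the log2(value + 1) scale, was -0.083 (limma, 95% interval -0.61 to 0.44, adjusted p = 0.943). Among the sequences of a library, miR-181a-5p stood at ranks 40 to 44.

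miR-181b-5p, with the same seed, was listed at a lower level, again on both disks. Its normalized value was 131, 172 and 127 on ST disks and 125, 145 and 154 on smooth disks. The groups overlapped, with 1 ST library above every smooth library and 1 smooth library below every ST library. The means were 143 ± 25.4 and 141 ± 14.9 (SD, n = 3 each), and the log2 fold change was 0.011 (limma, 95% interval -0.70 to 0.72, adjusted p = 0.993). The ratio of miR-181a-5p to miR-181b-5p within a library was 4.39 ± 0.823 on ST disks and 4.69 ± 0.925 on smooth disks, with a lowest value of 3.49 and a highest of 5.71.

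**Figure D1:**
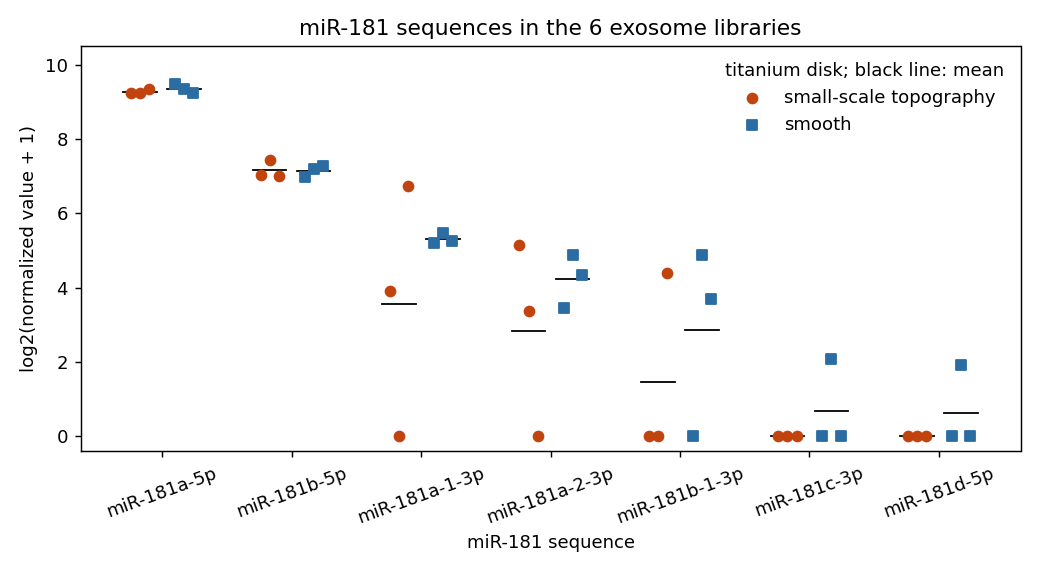
The log2(normalized value + 1) of each miR-181 sequence is plotted by library, with circles for the 3 small-scale topography libraries, squares for the 3 smooth libraries and a black line for each group mean on this scale. Both guides sit in narrow bands on both disks, whereas miR-181a-1-3p, miR-181a-2-3p and miR-181b-1-3p each have at least 1 library at 0, and miR-181c-3p and miR-181d-5p have 1 library above 0.

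In their deposited normalized values, whose scaling is not given, the guides differed little between libraries. As a percent of the library total, miR-181a-5p spread more widely on ST disks, at 0.285%, 0.215% and 0.232%. On smooth disks it was at 0.261%, 0.230% and 0.256%. The SDs that follow are those of the deposited values. The SD of miR-181a-5p within the groups was 0.10 on the log2 scale, the smallest of the 536 sequences tested. Other sequences were nearly equal: it was 0.0967, beside 0.0968 for miR-99a-5p_R-1 and 0.0990 for miR-92a-3p_R+1, the next in order. With 3 libraries a group, such values cannot be ranked. Of the 37 other sequences within 1 log2 unit of its mean level, none had a smaller SD, and their median was 0.33. The SD of miR-181b-5p was 0.20, the 23rd smallest of 536, and 4 of 66 sequences at a like level had a smaller one. The coefficient of variation of miR-181a-5p was 4.09% on ST disks and 8.61% on smooth disks, beside 2.68% to 5.08% from counting error alone at the recovered read numbers of single libraries. This counting error takes the guide values as all of the reads. They may stand for only a part of them, and the error would then be smaller. The limma interval of miR-181a-5p is wider than its SD within the groups would give, since limma pools the spread with that of other sequences at a like level.

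The passenger arms varied far more, and for both miR-181a passengers the wider range was that of the ST libraries. Depth also differed, at 163845, 180372 and 264828 recovered reads on ST disks and 329805, 604081 and 194510 on smooth disks. Whether the spread differed between the disks was not tested. miR-181a-1-3p, the passenger of the chromosome 1 hairpin, was listed at 14.1, 0 and 105 on ST disks and at 35.5, 43.3 and 37.4 on smooth disks. The smooth libraries were close to each other, and the ST libraries lay on both sides of them. These values correspond to 11, 0 and 100 reads and to 43, 93 and 31 reads. The means were 39.7 ± 57.03 and 38.7 ± 4.10 (SD, n = 3 each). The fitted log2 fold change was -1.76 (limma, 95% interval -3.89 to 0.37, adjusted p = 0.823), a sign opposite to that of the means, because it rests on the library listed at 0 and on the pseudocount. It was 0.018 without ST replicate 2 and -3.35 without ST replicate 3. The SD within groups was 2.39 on the log2 scale, and 102 of 104 sequences at a like level had a smaller SD.

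miR-181a-2-3p, the passenger of the chromosome 2 hairpin, was listed at 34.7, 9.32 and 0 on ST disks and at 9.91, 28.4 and 19.3 on smooth disks. Its highest value and its only 0 were both on ST disks. The means were 14.7 ± 17.97 and 19.2 ± 9.26 (SD, n = 3 each), and the fitted log2 fold change was -1.38 (limma, 95% interval -3.81 to 1.05, adjusted p = 0.823), but 0.040 without ST replicate 3. In that replicate, miR-181a-1-3p had 100 reads and miR-181a-2-3p was listed at 0, where about 5 reads, a value of 5.25, is the level under which sequences are mostly not listed.

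miR-181b-1-3p, cut from the hairpin beside Mir181a-1, was listed at 0, 0 and 19.97 on ST disks and at 0, 28.4 and 12.1 on smooth disks. The 3 libraries that listed it were the 3 with the highest normalized values of miR-181a-1-3p, its neighbour on chromosome 1. This rests on 37.4 in smooth replicate 3 against 35.5 in smooth replicate 1, and it did not hold by reads. Smooth replicate 1 had 43 reads of miR-181a-1-3p, more than the 31 of smooth replicate 3, and listed miR-181b-1-3p at 0. The means were 6.66 ± 11.5 and 13.5 ± 14.3 (SD, n = 3 each), and the fitted log2 fold change was -1.40 (limma, 95% interval -4.83 to 2.04, adjusted p = 0.823), but -0.39 without smooth replicate 2.

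**Figure D2:**
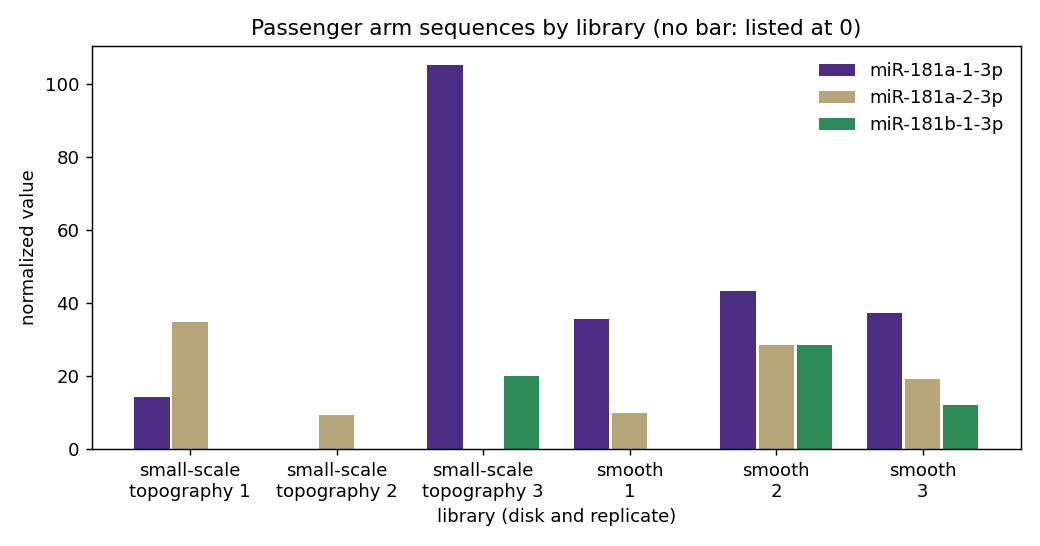
Bars give the normalized value of the 3 tested passenger sequences in each library, and a missing bar is a value listed at 0. miR-181a-1-3p stands at 105 in small-scale topography replicate 3, where miR-181a-2-3p is at 0, while small-scale topography replicate 2 lists miR-181a-2-3p alone, at 9.32, and the 3 smooth libraries list both miR-181a passengers.

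The chromosome 8 pair was at the limit of listing. miR-181c-3p was listed at 3.26 and miR-181d-5p at 2.80, both in smooth replicate 2 and at 0 in the other 5 libraries, which are 7 and 6 reads. Smooth replicate 2 was the deepest library, and about 5 reads are worth 2.33 there against 4.13 to 7.77 in the others. At the depth of the other libraries, values of this size would mostly not be listed, and a difference between the disks was not detectable for this pair.

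Rows with related names that the rule does not take held few reads. A row named sha-mir-181a-2-p3, which differs by 1 base from miR-181a-1-3p and by 1 base from miR-181a-2-3p, was listed at 12.4, or 8 reads, in ST replicate 2 alone, the library in which miR-181a-1-3p was at 0. A row named bta-mir-181b-2-p3, which shares its first 18 bases with mouse miR-181b-2-3p, was listed at 7.46, or 16 reads, in smooth replicate 2 alone. Neither sequence was found in a mouse RefSeq hairpin.

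The share of the family in a library did not separate the disks. All members together made up 0.324% ± 0.0456 of the normalized total on ST disks and 0.331% ± 0.0167 on smooth disks (SD, n = 3 each, exact permutation test, two-sided, p = 0.9). The guides made up 0.300% ± 0.0408 and 0.304% ± 0.0193 of the total, and the passengers 0.0238% ± 0.0208 and 0.0276% ± 0.0101. Within the guides, miR-181b-5p took 18.8% ± 3.06 on ST disks and 17.9% ± 2.77 on smooth disks. Of these 8 shares, none reached the smallest p of 0.1 that 3 libraries against 3 allow. Their exact p-values ran from 0.5 to 0.9, and every p adjusted over the 8 was 0.9.

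The passenger arms took a small part of the family's signal, and for miR-181a the range was wider on ST disks. The passenger share of miR-181a was 7.69% ± 6.25 on ST disks, from 1.53% to 14.0%, and 8.20% ± 2.02 on smooth disks, from 5.998% to 9.96% (SD, n = 3 each, exact permutation test, two-sided, p = 0.9). For miR-181b it was 4.54% ± 7.86 and 7.88% ± 8.19, with libraries at 0 in both groups. Of the miR-181a passengers, the chromosome 1 arm made up 43.0% ± 51.5 on ST disks, from 0 to 100%, and 68.2% ± 9.10 on smooth disks, from 60.4% to 78.2% (exact permutation test, two-sided, p = 0.5).

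The guide values may stand for only a part of the reads, which bears on every ratio of guide to passenger. Both guides held values in steps of 0.5 reads, such as 467.5 reads of miR-181a-5p and 101.5 reads of miR-181b-5p in ST replicate 1, whereas the values of the 3p arms were whole reads. Among sequences listed in all 6 libraries, 35.4% of the values fell between whole reads for the 16 sequences found in 2 mouse hairpins, against 5.50% for the 100 found in 1. How the program divided such reads is not given in the sources used here. With the guide values doubled, a setting added once the data had been seen, the passenger share of miR-181a was 4.07% ± 3.39 on ST disks and 4.28% ± 1.09 on smooth disks.

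The share of the lesser arm was also computed for 31 other mouse hairpins with both arms listed and no sequence in a second hairpin. Its median over these hairpins was 1.73%, from 0.00798% to 41.6%. The mean over the 6 libraries was 7.94% for miR-181a, above 23 of the 31, and 6.21% for miR-181b, above 22 of them. With the guides doubled, these were 4.18%, above 20, and 3.33%, above 19. The SD over the 6 libraries was 4.16 percentage points for miR-181a, larger than in 21 of the 31 hairpins, and 7.41 for miR-181b, larger than in 29. With the guides doubled, the SD was 2.25, larger than in 17, and 4.01, larger than in 21. These SDs are not scaled to the mean share, which was also above that of most of the 31 hairpins. The ranks of the SD are therefore not independent of those of the mean.

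By mean level over the 6 libraries, the order was miR-181a-5p, miR-181b-5p, miR-181a-1-3p, miR-181a-2-3p, miR-181b-1-3p, miR-181c-3p and miR-181d-5p. Neighbours in this order were compared within libraries on the log2(value + 1) scale by an exact sign-flip permutation test over both groups, for which 0.0312 is the smallest p that 6 libraries allow. miR-181a-5p exceeded miR-181b-5p in 6 of 6 libraries, by 2.16 ± 0.255 (SD, exact p = 0.0312, adjusted over 5 pairs 0.0781). miR-181b-5p exceeded miR-181a-1-3p in 6 of 6 libraries, by 2.72 ± 2.48 (SD, exact p = 0.0312, adjusted 0.0781). The passengers did not differ beyond their spread: miR-181a-1-3p exceeded miR-181a-2-3p in 4 of 6 libraries (exact p = 0.625), and miR-181a-2-3p exceeded miR-181b-1-3p in 4 of 6 (exact p = 0.438). The order of levels between sequences also carries the unequal ligation and amplification of different sequences.

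Across the 5 members tested, 4 log2 fold changes were negative and 1 was positive, with a median of -1.38, beside 49.4% negative and a median of 0.012 over the 536 sequences tested. The 3 most negative belong to the passengers, each with a 0 in 1 or more ST libraries, and they depend on the pseudocount: with 5 in place of 1 they were -0.99 for miR-181a-1-3p, -0.70 for miR-181a-2-3p and -0.73 for miR-181b-1-3p, and the median of the members was -0.70. No member had an adjusted p under 0.05 and none had an unadjusted p under 0.05 from limma. Over all 536 sequences the share called at an adjusted p under 0.05 was 0%, and 12 sequences, or 2.24%, had an unadjusted p under 0.05. The groups did not overlap in 0 of the 5 members, beside 6.90% of all tested sequences.

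**Figure D3:**
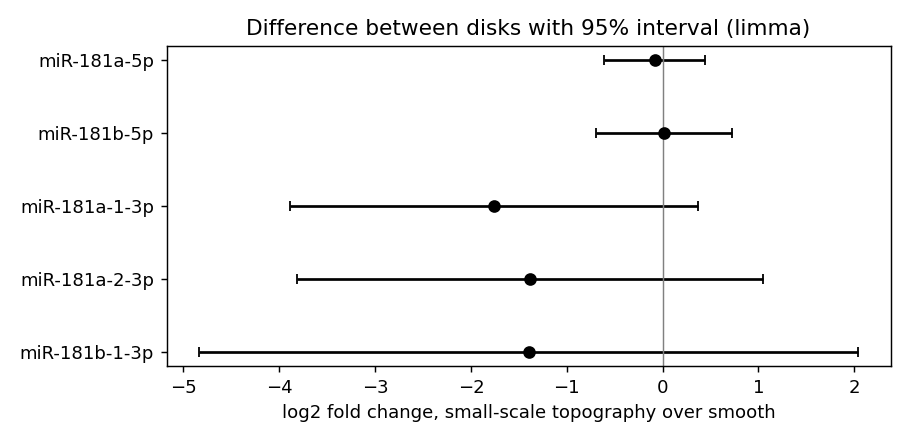
The log2 fold change of small-scale topography over smooth (horizontal axis) is plotted for the 5 tested members, with bars for the 95% interval from limma. All 5 intervals include 0, from -0.61 to 0.44 for miR-181a-5p and from -4.83 to 2.04 for miR-181b-1-3p.

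**Figure D4:**
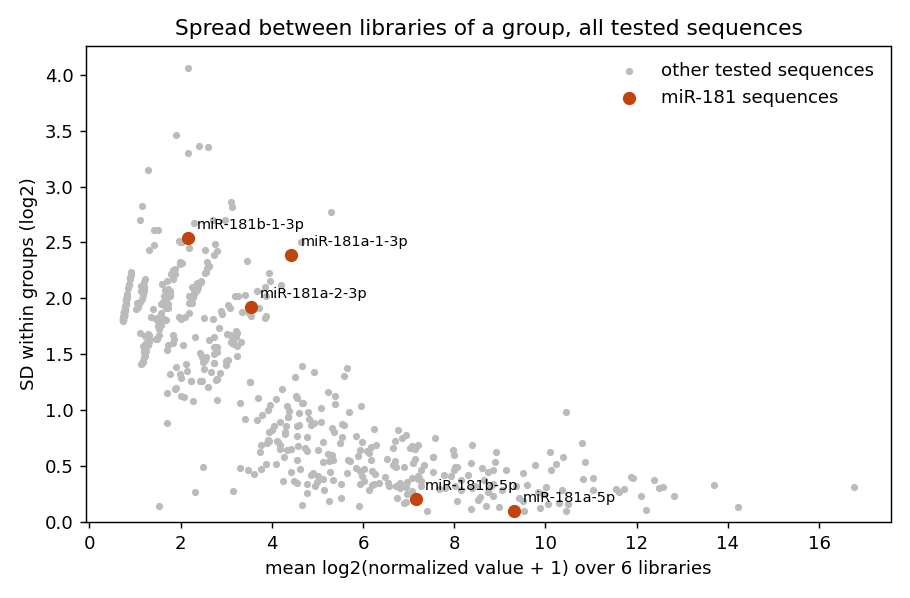
For each of the 536 tested sequences, the SD within groups (log2, vertical axis) is plotted against the mean log2(normalized value + 1), with the miR-181 sequences in colour. miR-181a-5p has the smallest SD, at 0.0967, nearly equal to that of miR-99a-5p_R-1 at 0.0968, while miR-181a-1-3p, at 2.39, lies above nearly all sequences of its level.

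Among the 250 other sequences listed in all 6 libraries, the pattern most like that of miR-181a-5p was that of miR-125b-5p (Pearson r = 0.94 over 6 libraries), followed by the miR-339-3p variant miR-339-3p_R-2_1ss12AG (r = 0.94) and miR-98-5p_R-1 (r = 0.93). These are descriptions over 6 libraries that share their depth and scaling, and 7 of the 250 had an r above 0.9.

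Other microRNAs of blood cells and macrophages were counted beside the family. Of 9 tested sequences of this list, 8 log2 fold changes were below 0 and 1 was above (median -0.59), and none had an adjusted p under 0.05 from limma. Over all 536 sequences tested, 49.4% were negative, with a median of 0.012. The median was that of miR-142-3p_L-1, with means of 7.83 on ST disks and 7.22 on smooth disks. The positive one was miR-155-5p, with means of 29.4 and 36.6, so both signs were opposite to those of the means. Both miR-21-5p and miR-146a-5p entered the list with more than 1 sequence. The most abundant were miR-21-5p, with a mean normalized value over the 6 libraries of 112972, miR-146a-5p, which dampens Toll-like receptor signaling, with 280, and miR-142-5p_L+2R-2, from a gene active throughout blood cells, with 140. The level of miR-181a-5p, with a mean of 635, stood between those of miR-21-5p and miR-146a-5p, and miR-155-5p, induced in inflammatory macrophages, stood at 33.0. miR-150-5p and miR-342-3p were not listed.

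MicroRNAs known from serum, red cells, liver and muscle were present in both groups. Their summed value ran from 3302 to 3623 on ST disks and from 2373 to 3897 on smooth disks, mostly from miR-122-5p_R-1, with a mean of 3037, whereas miR-451-5p_R+1 stood at 7.76 and miR-206-3p was not listed. Of 5 tested sequences, 3 log2 fold changes were positive and 2 negative (median 0.014), and none had an adjusted p under 0.05. The names of this list carry an arm for miR-486, so the row miR-486_R-1, which names none, was not counted. It was listed in all 6 libraries, with means of 32.2 on ST disks and 13.1 on smooth disks. Its groups did not overlap, as in 6.90% of all tested sequences (log2 fold change 1.21, limma adjusted p = 0.823). The mesenchymal list summed to between 528 and 765 on ST disks and between 676 and 788 on smooth disks, with miR-199a-3p_R-1 at a mean of 419, miR-214-3p_L+1R-3 at 142 and miR-143-3p_1ss22AT at 125, while miR-145-5p was not listed. Of its 4 tested sequences, 1 was positive and 3 were negative (median -0.30), none with an adjusted p under 0.05. Among all 536 sequences tested, 49.4% were negative and the median was 0.012. One of the negative ones, miR-199a-5p_R-2 (-0.53), had a higher mean on ST disks, 4.66 against 3.83. In the serum list, the signs of miR-194-5p and miR-451-5p_R+1 were likewise opposite to those of their means. The part of such RNA in the miR-181 values was not tested.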

How the data were processed

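Small RNA libraries (TruSeq) were made from exosomes of RAW264.7 cells and sequenced. Per the labels and the methods, the authors trimmed the 3′ linker, retained 18 to 26 nt, and used ACGT101-miR to discard junk, common RNA families and repeats. Each deposited value is a normalized signal, not a count. How the values were scaled, with which program version, miRBase release and genome build, is not given in the sources used here. In all, the table held 2731 rows beside 1 blank line.

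The value of 1 read was taken from the steps of the values (0.466 to 1.55 over the libraries). Within 0.02 reads, 87.9% to 92.7% of the listed values came out as whole reads, and count models were therefore not used. On this scale the depth ran from 163845 to 264828 reads with small-scale topography and from 194510 to 604081 with smooth disks. Of the listed values, 1.78% to 7.95% lay under 5 reads. Read numbers and their errors cover counting error only.

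Rows with the same sequence and values were used once. limma 3.58.1 (R 4.3.3, eBayes with a mean-variance trend) was fitted to log2(value + 1) of the 536 sequences with a summed value of 20 or more, without covariates. The p-values were adjusted by Benjamini-Hochberg (threshold 0.05). The fit was also run on simulated, normally distributed log2 values without a limit of listing. That simulation does not cover sequences that some libraries do not list, such as the passengers. Shares were compared by the exact permutation test. Other tools were Python 3.11.15 with SciPy 1.17.1, NumPy 2.4.6, Matplotlib 3.10.9 and pandas 2.3.3. Alternatives were other scalings, filters, pseudocounts and totals, no trend, isomiRs summed, a replicate block and each library left out.

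Mature sequences, hairpins and coordinates are from RefSeq (GRCm38.p6), and gene overlaps from GENCODE M21; the hairpin of Mir181c was not used here. The named sequences are all members, the 3 sequences most correlated with the leading member, and the 3 of highest mean in each list. Of the latter, miR-192-5p and miR-144-3p are not described. Other sequences were named after their values were seen: the rows with related names and the unlisted microRNAs. The same holds for miR-155-5p, miR-142-3p, miR-451-5p, miR-194-5p, miR-199a-5p, miR-486, miR-99a-5p and miR-92a-3p. The members and lists were chosen with earlier results of these data known.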

Additional observations from a re-analysis of the deposited data

How the results depend on the processing

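No sequence of the family and no sequence of the table had an adjusted p under 0.05 from limma under any scaling, filter, pseudocount, trend setting, sum of isomiRs by name or library left out. The smallest adjusted p over these settings was 0.0515, without smooth replicate 3. At an unadjusted p under 0.05 there were 6 to 36 sequences. miR-181a-5p kept a negative log2 fold change under every setting (-0.14 to -0.019 with 1 library left out). That of miR-181b-5p turned to -0.056 with trimmed-mean scaling and ranged from -0.13 to 0.092 with 1 library left out. With 1 library left out, miR-181a-1-3p ranged from -3.35 (unadjusted p = 0.00736 from limma, adjusted p = 0.883) to 0.018, miR-181a-2-3p from -2.54 to 0.040 and miR-181b-1-3p from -2.86 to -0.39. With a pseudocount of 5 the log2 fold changes of miR-181a-1-3p, miR-181a-2-3p and miR-181b-1-3p were -0.99, -0.70 and -0.73. The unadjusted p of miR-181a-1-3p was under 0.05 in 4 of the alternatives. The guide share of a library turned from -0.00367 to 0.00300 percentage points (small-scale topography minus smooth) when candidates without a microRNA name were left out of the total.

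With 1 library left out, the difference in percentage points ranged from -0.0307 to 0.0149 for the family share, from -0.0272 to 0.00837 for the guide share and from -0.0143 to 0.00649 for the passenger share of a library, from -4.61 to 1.77 for the passenger share of the family, from -3.67 to 2.57 for that of miR-181a, from -7.88 to 0.904 for that of miR-181b, from -0.723 to 2.27 for the miR-181b share of the guides and from -53.7 to -3.70 for the chromosome 1 share of the miR-181a passengers. The log2 difference between miR-181a-1-3p and miR-181a-2-3p ranged from -0.27 to 1.75. The ranges that include both signs change direction with a single library, and the cause was not tested; the chromosome 1 share, miR-181a-5p and miR-181b-1-3p kept their sign. Deviations from the group means correlated at -0.035, 0.10 and 0.025 between libraries of the same number. Between libraries of different numbers the correlations ran from -0.15 to 0.14. The labels do not say whether a shared number marks a shared preparation. This check cannot decide it, since deviations from the mean of only 3 libraries are tied to each other. A replicate block gave 0 sequences with an adjusted p under 0.05 and 18 with an unadjusted p under 0.05, against 12 without it, and a difference of -0.00743 percentage points in the family share, as without it. Alternatives restricted to 1 sequence per arm, or to sequences listed in all 6 libraries, were not run, since each arm has 1 sequence and no passenger is listed in all 6. Depth limits the sequences of few reads, as 5 reads are worth up to 7.77.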
